A study of Arabidopsis thaliana with 16 samples.

Results

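The transcript response to avrB was followed in leaves of the Arabidopsis thaliana mutant sid2. It was taken as the difference between 2 arrays of sid2 leaves sampled 6 h after avrB and 2 arrays of untreated sid2 leaves, chosen by their titles, which are 4 of the 16 arrays in the series. The other groups used here are, likewise with 2 arrays each, the mutant atgsnor1-3 after avrB and untreated, and Col-0, the wild type, after avrB and untreated; atgsnor1-1 after avrB and untreated is given for a few values only. All plants were 4 weeks old and were kept at 20 °C and 65% relative humidity under days of 18 h light with nights of 6 h. The labels give no strain or manner of delivery for avrB, no background line or allele number for sid2 and no sampling time for untreated leaves. The control was untreated rather than mock-treated, so the effects of avrB, of its delivery and of a different sampling time cannot be told apart. Nothing in the labels says that the arrays of a group came from separate plants, so the spread behind the p-values may be technical. That spread is the one between arrays of the same group, pooled over all 8 groups and 16 arrays, not over the sid2 arrays alone.

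AvrB is an effector protein that Pseudomonas syringae injects into plant cells. In Arabidopsis it is known to alter the guard protein RIN4, which the resistance protein RPM1 detects, and this leads to calcium influx, a burst of reactive oxygen and death of the attacked cells. SID2 encodes the isochorismate synthase that makes most of the salicylic acid formed in infected leaves; salicylic acid drives many defence genes and restrains those driven by jasmonate. GSNOR1 encodes S-nitrosoglutathione reductase, and the allele atgsnor1-3 lacks its function. The isochorismate synthase gene was not analysed here, so the genotype label of the sid2 arrays was not checked against it.

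The values are signals in arbitrary units, with the mean of each array, taken without the lowest and highest 2% of signals, scaled to 100. The sid2 arrays after avrB had median signals of 33.4 and 33.4 units, and the untreated sid2 arrays had 36.6 and 36.6, within a range of 33.1 to 40.9 over all 16 arrays. The log2 signals of the pair correlated at 0.972 after avrB and at 0.965 in untreated leaves, and each of the 4 arrays was closest to the other array of its own group. Of the other groups, the untreated Col-0 arrays correlated at 0.934 with each other and at 0.950 and 0.945 with an untreated atgsnor1-1 array. The untreated atgsnor1-3 arrays had the lowest correlation of any pair, at 0.920. Array 1 of that pair was closest to untreated sid2 array 1, at 0.931. The RNA came from leaves, a mix of cell types, in which fewer cells of a type and less RNA per cell cannot be told apart. Ribulose bisphosphate carboxylase activase (RCA), the mesophyll marker that was measured, had 3256 and 3327 units after avrB and 6236 and 6003 units in untreated leaves. The measured root markers, 2 in number, reached at most 18.1 units on any sid2 array.

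Transcript levels changed widely in sid2 after avrB. Of 13648 probe sets tested, 3064 (22.5%) were called, which means that limma's adjusted p was below 0.05 and the log2 difference was 1 or more in either direction, and 6333 had an unadjusted p under 0.05. Of these calls, 1485 (10.9% of the tested) were higher and 1579 (11.6%) were lower after avrB. Counts of called list members given below are to be read beside these shares, and most lists have few tested genes. Rises were larger: 331 called probe sets rose by a log2 of 3 or more and 31 fell by as much. The median was 1.86 over the calls that were higher and -1.41 over those that were lower, against -0.16 over all tested probe sets. In all 3064 calls both arrays after avrB lay on the same side of both untreated arrays. With 2 arrays a group the call rule itself favours such a separation, so it is no further evidence. A part of the large rises came from genes at the bottom of the scale in untreated leaves: 305 (20.5%) of the 1485 had an untreated mean below 20.2 units, which is the filter level that a probe set's mean over the series had to reach. Where low signals move a sid2 response or a difference between responses by over 1.5 times, its value with the floor is mostly given too. This value has all signals under 20.2 units raised to that level. Responses of the other genotypes are given without it, also where they rest on signals under 20.2 units.

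Among genes with a mean of at least 100 units in 1 group, AT3G01830 had the largest fitted rise, at 1054 and 924 units after avrB and 1.38 and 1.82 units in untreated sid2 (log2 difference 9.29 ± 0.26 SE, n = 2 arrays a group here and throughout, adjusted p = 2.02e-12). AT4G39670 had 1097 and 1099.8 units after avrB and 1.77 and 2.40 units untreated (9.06 ± 0.39, adjusted p = 1.53e-10). For both genes the arrays after avrB were far above untreated arrays that held almost no signal; with the floor at 20.2 units the differences were 5.61 for AT3G01830 and 5.76 for AT4G39670, below the 6.16 of AT1G10585, so the order of the largest rises rests on signals under the filter level. XTH18, a xyloglucan endotransglucosylase/hydrolase that cuts and rejoins wall polymers, had 410.4 and 608 units after avrB against 2.35 and 1.23 units (8.20 ± 0.73, adjusted p = 2.7e-07; 4.63 with the floor). UGT76E12, a UDP-glycosyltransferase, had 240.2 and 428 units after avrB against 1.06 and 1.63 units (7.93 ± 0.88, adjusted p = 3.05e-06; 3.99 with the floor). Both genes were thus near the bottom of the scale in untreated leaves and at an intermediate level after avrB. CML37, a calmodulin-like calcium sensor, had 231 and 226 units after avrB and 0.778 and 4.64 units untreated (6.91 ± 0.63, adjusted p = 3.57e-07; 3.50 with the floor). CCR2, a cinnamoyl-CoA reductase of lignin-type phenolic synthesis, had 419.6 and 363 units after avrB and 2.80 and 4.87 units untreated (6.72 ± 0.50, adjusted p = 4.11e-08; 4.27 with the floor). The other 9 of the 15 largest rises were AT1G05340, AT1G10585, AT2G32140, AT3G48640, AT3G02840, AT3G21080, AT1G26420, AT3G48650 and AT2G32190, with log2 differences between 6.45 and 7.86. With the floor these 9 lay between 2.90 (AT3G48640 and AT1G26420) and 6.16 (AT1G10585). The highest level among them after avrB was that of AT1G10585, with 1567 and 1342 units against 16.1 and 5.05 units in untreated leaves.

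The 15 largest falls were smaller and came mostly from genes with a clear level in untreated leaves. AT1G19960 fell most, with 24.1 and 36.5 units after avrB against 811 and 912 units untreated (log2 difference -4.86 ± 0.26, adjusted p = 1.07e-09). PDF1.2, the plant defensin used as a marker of jasmonate and ethylene signalling, had 19.5 and 22.6 units after avrB and 449 and 327 units untreated (-4.19 ± 0.77, adjusted p = 0.000405). After avrB the defensin was at about the filter level, while both untreated arrays lay far above it. EXPA8, an expansin that loosens cell walls, had 30.7 and 40.5 units after avrB and 327 and 321 units untreated (-3.20 ± 0.42, adjusted p = 1.75e-05). AT5G61590, also named DEWAX, a transcription factor known to repress wax synthesis, had the highest untreated level of the 15: 143 and 169.7 units after avrB stood against 1253 and 1597 units (-3.18 ± 0.20, adjusted p = 5.63e-09). In both genes the groups lay well apart. STOMAGEN, a peptide of the leaf interior that promotes stomata, had 13.2 and 13.9 units after avrB and 122 and 127 units untreated (-3.20 ± 0.92, adjusted p = 0.0112). STOMAGEN had close sid2 pairs, and its SE rests on the spread pooled over all 8 groups. Its call was lost whenever 1 sid2 array was left out, at adjusted p of 0.0501 to 0.0566. AT4G38690 had 1.58 and 24.7 units after avrB and 107 and 168 units untreated (-4.42 ± 1.11, adjusted p = 0.00463; -2.58 with the floor), and without array 1 after avrB its difference was -2.44 (adjusted p = 0.0985). The other falls were those of AT3G15570, AT5G44680, AT1G76960, AT5G25240, AT5G16030, AT1G73600, DRT100, AT2G29290 and AT3G19680, between -4.33 and -2.95; that of AT3G15570, the largest of them, was -2.77 with the floor.

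**Figure D1:**
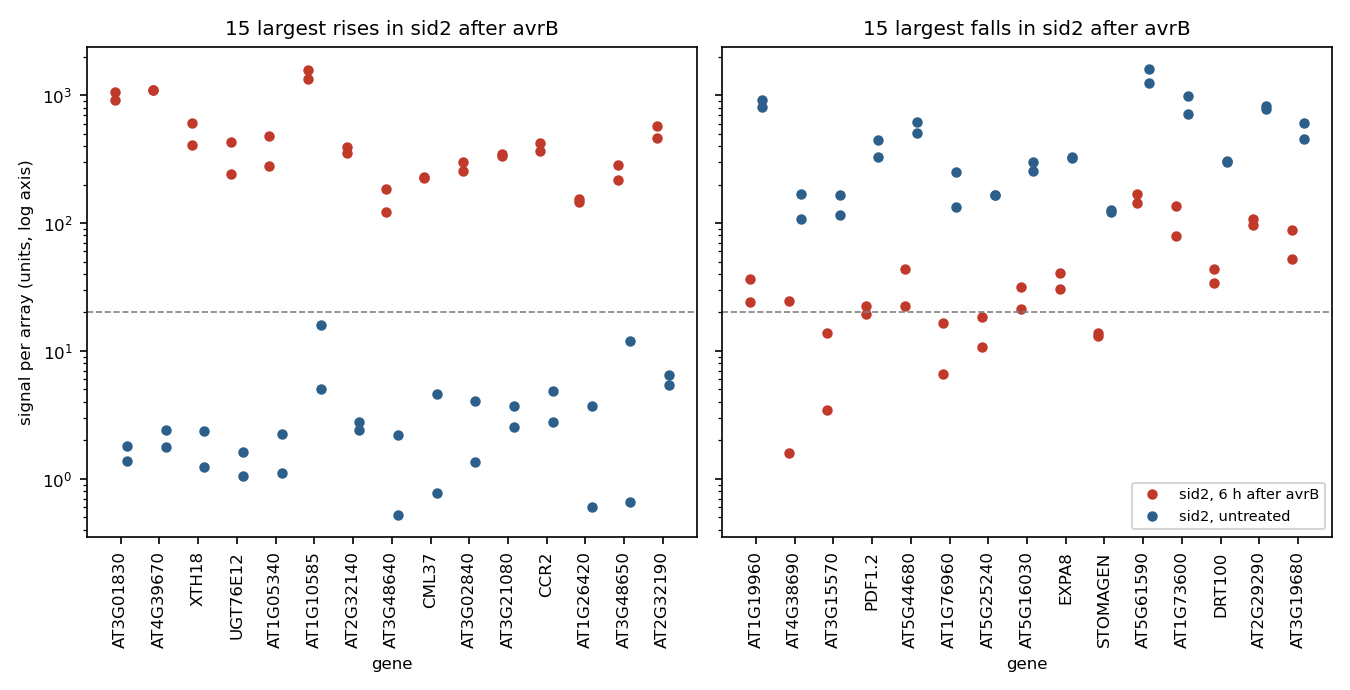
Signals on each of the 4 sid2 arrays (units, log axis) of the 15 genes with the largest called rises and the 15 with the largest called falls; red points are the 2 arrays 6 h after avrB, blue points the 2 untreated arrays, and the dashed line marks 20.2 units. All untreated signals of the rising genes lie below the line, while the falling genes start between 107 and 1597 units in untreated leaves.

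Most measured genes of salicylic acid signalling rose in sid2. Of 30 genes on the list, 5 had a tested probe set; 4 rose, none fell, and the median was 2.43. UGT76B1, which attaches glucose to salicylic acid and related immune signals, had 141 and 105 units after avrB and 2.28 and 6.04 units untreated (5.04 ± 0.87, adjusted p = 0.00025; 2.59 with the floor). GRX480, a glutaredoxin that binds TGA transcription factors, had 267 and 294 units after avrB and 27.8 and 25.3 units untreated (3.40 ± 0.29, adjusted p = 1.71e-07). WRKY53, a transcription factor of defence and leaf senescence, had 327 and 268 units after avrB and 56.7 and 53.4 units untreated (2.43 ± 0.27, adjusted p = 3.09e-06). For these genes no array after avrB came near an untreated one. SAG101, a partner of EDS1 in signalling by resistance proteins, rose by 2.14 ± 0.31 (adjusted p = 5.18e-05), while AT1G67760 was not called (-0.90 ± 0.48). BSMT1, which makes methyl salicylate, was below the filter and not tested; it had 69.1 and 296 units after avrB and 3.10 and 15.2 units untreated. On the list of pipecolic acid synthesis, AT5G52810 had 424 and 449 units after avrB and 76.3 and 48.5 units untreated (2.84 ± 0.20, adjusted p = 2.15e-08); the other tested member was UGT76B1.

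The measured genes of resistance protein signalling and of pattern-triggered immunity, the layer of defence that responds to conserved microbial molecules, all rose. SGT1A, a co-chaperone that resistance proteins need to accumulate, had 1019.6 and 981 units after avrB against 90.1 and 132 units (3.20 ± 0.20, adjusted p = 5.46e-09); with SAG101 it made up the 2 tested of 19 genes on its list. Of 33 genes of pattern-triggered immunity, 4 were tested, 4 rose, and the median was 2.90. BIK1, a kinase that passes signals on from pattern receptors, had 515 and 539.9 units after avrB and 75.7 and 91.5 units untreated (2.66 ± 0.19, adjusted p = 2.07e-08). The 3 ubiquitin ligases PUB22, PUB23 and PUB24, which are known to damp such signalling, rose by 2.99 ± 0.64, 3.28 ± 0.46 and 2.80 ± 0.20. Activators and dampers on the list were therefore called in the same direction. Of the calmodulin-like calcium sensors, 4 of 6 tested rose and the median was 3.07. Beside CML37, CML38 had 432 and 481 units after avrB against 22.2 and 21.5 units (4.38 ± 0.62, adjusted p = 3.42e-05), and CML41 had 478 and 452 units against 29.9 and 13.5 units (4.53 ± 0.30, adjusted p = 9.71e-09). CML42 rose by 1.75 ± 0.20, and CML43 (0.58 ± 0.63) and CML30 (-0.43 ± 0.27) were not called. Of 72 WRKY transcription factors, 6 were tested and 3 rose: WRKY6 by 3.69 ± 0.38, WRKY53 as above and WRKY47 by 2.14 ± 0.36. WRKY22, WRKY20 and ZAP1 were not called, with differences between -0.39 and 0.56. STZ, a zinc finger repressor of the stress response, had 1502 and 1600.2 units after avrB and 197 and 232 units untreated (2.86 ± 0.20, adjusted p = 1.59e-08).

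Most tested genes of 2 families of secreted and oxidative defence enzymes rose. The chitinase, berberine bridge enzyme, and AZI1 and EARLI1 lists were added after values were seen, so their counts are no test of these families. All 7 tested genes of the chitinase family, whose members break down fungal wall polymers, were called higher, with a median of 3.42. Of the 24 genes, 15 had a probe set, and with no filter 6 of the 15 were called higher, with a median of 0.36. The filter took the mean over all arrays, those after avrB included, so it favours genes that avrB raises. AT2G43620 had 2791 and 2558 units after avrB and 62.0 and 44.9 units untreated (5.66 ± 0.53, adjusted p = 4.46e-07), the highest level in the family after avrB. AT3G47540 had 954 and 797 units after avrB against 69.3 and 72.7 units (3.62 ± 0.17, adjusted p = 3.36e-10), and AT4G01700 had 516 and 495 units against 37.5 and 59.1 units (3.42 ± 0.24, adjusted p = 1.66e-08). CHI rose by 2.71 ± 0.23 and ChiC by 2.94 ± 0.34 (1.73 with the floor). The smallest rise, of AT2G43590 (1.07 ± 0.38, adjusted p = 0.0362), was lost whenever 1 sid2 array was left out and under 4 other settings. Of 22 measured berberine bridge enzyme-like oxidases, 9 were tested, 7 rose, 1 fell, and the median was 2.52. With no filter 8 of the 22 were called higher and 1 lower, with a median of 0.86. AT4G20830 reached the highest level, with 1624 and 1388 units after avrB against 94.6 and 120.2 units (3.82 ± 0.23, adjusted p = 4.8e-09). AT4G20860 rose by 5.00 ± 0.64 (4.43 with the floor), AT1G26380 by 4.62 ± 0.61 (3.30 with the floor) and AT2G34810 by 2.45 ± 0.34, whereas AT5G44410 fell by 1.81 on the log2 scale (adjusted p = 0.00242). The rises of AT5G44380 and AT5G44390, at 2.52 (1.08 with the floor) and 2.11, were each lost without at least 3 of the 4 sid2 arrays in turn. Both measured genes of the AZI1 and EARLI1 cluster rose: AT4G12500 had 209 and 215 units after avrB and 28.6 and 11.2 units untreated (3.57 ± 0.61; 3.14 with the floor), and AT4G12490 rose by 2.14 ± 0.35.

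Jasmonate genes split by role. On the list of jasmonate synthesis and catabolism 4 of 23 genes were tested, 4 rose, and the median was 4.43. With no filter 4 of 5 were called higher, with a median of 3.19. AT2G38240 had 3494 and 4258 units after avrB and 72.2 and 55.1 units untreated (5.93 ± 0.43, adjusted p = 2.54e-08), JRG21, a jasmonate-regulated dioxygenase, had 857 and 1288 units against 33.2 and 12.8 units (5.67 ± 0.70, adjusted p = 8.49e-06), and AT5G05600 had 1384 and 1659 units against 145 and 191 units (3.19 ± 0.43, adjusted p = 1.94e-05). On the list these 3 stand for the dioxygenases that hydroxylate and so inactivate jasmonate. OPCL1, a ligase in the synthesis of jasmonate from its precursor, had 783 and 735 units after avrB and 185 and 319.9 units untreated (1.64 ± 0.24, adjusted p = 4.12e-05). On the list of jasmonate signalling and response, 5 of 26 genes were tested, none rose, 3 fell, and the median was -1.49. With no filter 2 of 6 were called lower and none higher, with a median of -1.22. Beside PDF1.2, ORA47, a factor that activates jasmonate synthesis genes, had 48.0 and 58.3 units after avrB and 129 and 170.1 units untreated (-1.49 ± 0.32, adjusted p = 0.00155). The probe set of PDF1.2b, which may also bind transcripts of other defensins, had 41.8 and 44.0 units after avrB against 321 and 232 units (-2.67 ± 0.95, adjusted p = 0.0359), and its call was lost whenever 1 sid2 array was left out. MYC3 (-0.27 ± 0.20) and MYC4 (-0.95 ± 0.49), both transcription factors of the pathway, were not called.

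Among genes of secondary metabolism, phenylpropanoid genes rose and glucosinolate genes fell. Of 22 genes of phenylpropanoid, lignin and scopoletin synthesis 4 were tested, 3 rose, and the median was 3.34. AT3G13610, also named F6'H1, which makes the precursor of the coumarin scopoletin, had 65.7 and 51.9 units after avrB and 1.19 and 1.75 units untreated (5.34 ± 0.48, adjusted p = 2.96e-07; 1.53 with the floor). HCT, an acyltransferase of lignin synthesis, had 1108 and 1127 units after avrB and 443 and 443 units untreated (1.34 ± 0.14, adjusted p = 1.49e-06). CCOAMT, a methyltransferase, had a difference of 0.98 ± 0.36 and was not called. AT2G04400, the tested member of the list of tryptophan, camalexin and indole glucosinolate synthesis, had 1007 and 868 units after avrB and 261 and 255 units untreated (1.86 ± 0.19). All 3 tested genes of aliphatic glucosinolate synthesis fell, with a median of -2.14. BCAT4, which starts the chain elongation of methionine, had 412 and 421 units after avrB and 2087 and 1612 units untreated (-2.14 ± 0.21, adjusted p = 6.51e-07). AT2G31790 had 101 and 72.0 units after avrB and 475 and 485 units untreated (-2.49 ± 0.23, adjusted p = 3.56e-07). GSTU20, a glutathione S-transferase, had 360.1 and 325 units after avrB and 1681 and 1336 units untreated (-2.13 ± 0.18, adjusted p = 1.68e-07). Of 7 tested glutathione S-transferases, which conjugate glutathione to reactive compounds, 3 fell, none rose, and the median was -0.97. With no filter 3 of 14 were called lower and none higher, with a median of -0.39. GSTU18 had 48.1 and 66.8 units after avrB against 287 and 345 units (-2.47 ± 0.25), and GSTU27 had 114 and 112 units against 383 and 388 units (-1.78 ± 0.14). Of 28 tested UDP-glycosyltransferases, which attach sugars to hormones and phenolics, 4 rose (14.3%) and 3 fell (10.7%), shares near the 10.9% and 11.6% of all tested probe sets, and the median was -0.26. UGT87A2 had 945 and 1058 units after avrB and 84.5 and 73.8 units untreated (3.66 ± 0.24, adjusted p = 9.7e-09), and UGT76C2, which glucosylates cytokinins, rose by 1.47 ± 0.28. The 3 falls, of UGT85A5, UGT71B1 and UGT88A1, reached -1.93 at the largest and were each lost without at least 2 of the 4 sid2 arrays in turn.

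**Figure D2:**
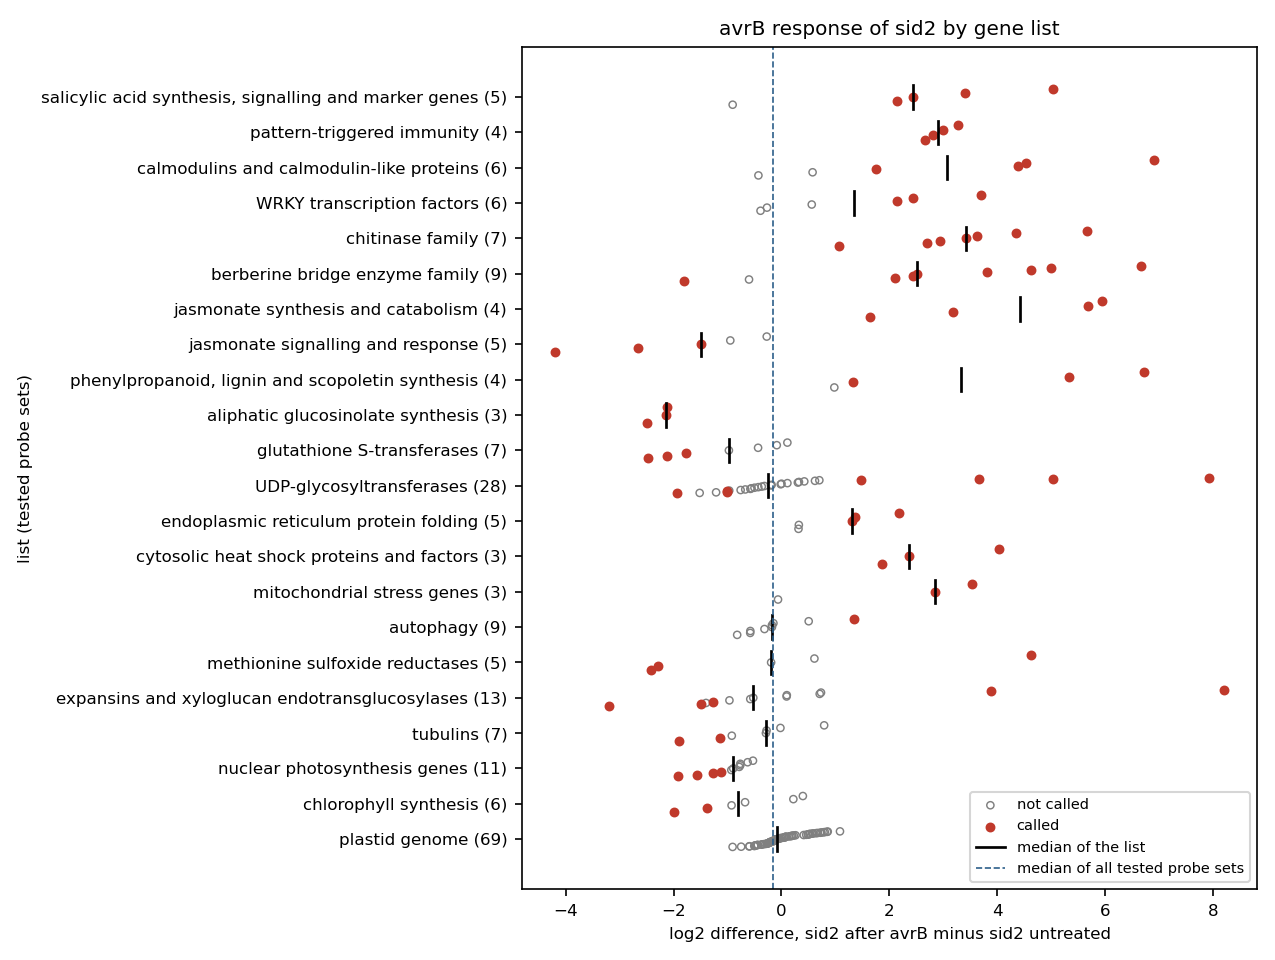
Log2 differences between sid2 after avrB and untreated sid2 (horizontal axis) for the tested probe sets of 22 gene lists, with the number tested in parentheses; filled red points were called, open grey points were not, black bars are list medians and the dashed line is the median of all tested probe sets (-0.16). The medians of the salicylic acid, pattern-triggered immunity, chitinase and jasmonate synthesis lists lie to the right. Those of the jasmonate signalling, glutathione S-transferase, aliphatic glucosinolate and nuclear photosynthesis lists lie to the left. All medians drawn are of probe sets past the filter. With no filter that of the chitinases was 0.36 and that of the glutathione S-transferases -0.39. The 69 probe sets of the plastid genome lie around 0 with none called. The chitinase, berberine bridge enzyme, methionine sulfoxide reductase and plastid genome lists were added after values were seen.

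Of 21 genes of the endoplasmic reticulum list 5 were tested, 3 rose, and the median was 1.31. BZIP60, which switches on unfolded protein response genes, had 667 and 732 units after avrB and 150.4 and 159 units untreated (2.18 ± 0.17, adjusted p = 7.77e-08). BZIP28, a membrane-bound factor of the same response, had 259 and 204 units after avrB and 87.0 and 92.1 units untreated (1.36 ± 0.23, adjusted p = 0.000192). The co-chaperone ATERDJ3B had 794 and 761 units after avrB and 293 and 336 units untreated (1.31 ± 0.19, adjusted p = 3.64e-05). The arrays of each of these genes fell into groups without overlap, while CRT1b, a calreticulin, and AT5G07340, both at 0.32 ± 0.24, were not called. All 3 tested heat shock genes of the cytosolic list rose, with a median of 2.36. Hsp70-2 had 2523 and 2231 units after avrB and 152 and 137 units untreated (4.03 ± 0.18, adjusted p = 2.01e-10), AT3G09440 had 3846 and 3821 units against 666 and 838 units (2.36 ± 0.22), and AT5G48570, also named FKBP65, had 159 and 87.0 units against 34.8 and 29.8 units (1.87 ± 0.29). Of the 3 tested mitochondrial stress genes, NDB2, an alternative NAD(P)H dehydrogenase of the respiratory chain, had 433 and 365 units after avrB and 55.6 and 55.2 units untreated (2.84 ± 0.22, adjusted p = 7.32e-08). AT5G51440 had 86.1 and 67.2 units after avrB and 5.37 and 7.95 units untreated (3.54 ± 0.84, adjusted p = 0.00331; 1.91 with the floor). AT2G21640 had 48.2 and 63.9 units after avrB and 42.5 and 79.3 units untreated (-0.06 ± 0.39, adjusted p = 0.918), so its groups overlapped.

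Redox and recycling genes were mixed. The methionine sulfoxide reductases, which repair oxidised proteins, moved in opposite directions: MSRB9 had 653 and 649 units after avrB and 26.9 and 26.0 units untreated (4.62 ± 0.37, adjusted p = 7.94e-08), whereas MSRB5 had 131 and 133 units after avrB and 727 and 686 units untreated (-2.42 ± 0.17, adjusted p = 2.36e-08) and MSRB6 had 104 and 134 units against 499.6 and 665 units (-2.29 ± 0.32, adjusted p = 3.04e-05). In each of the 3 genes the groups lay well apart, and the other 2 members tested, MSRB3 and MSRA5, were not called. The list of methionine sulfoxide reductases was added after values were seen. Glutathione reductase GR1 rose by 1.12 ± 0.17, and by 0.87 without untreated array 2, short of the threshold. The metallothionein MT1C rose by 1.58 ± 0.22 and the chloroplast thioredoxin TRXF2 fell by 1.18 on the log2 scale. Of 9 tested ATG8-family genes, whose products coat the membranes of autophagosomes, ATG8H had 160.0 and 178 units after avrB and 77.9 and 57.2 units untreated (1.34 ± 0.25, adjusted p = 0.000437). The other 8 were not called, at -0.82 to 0.50, and the median of the list was -0.18.

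Of 13 tested expansins and xyloglucan endotransglucosylases 2 rose, 3 fell, and the median was -0.52. With no filter 2 of 29 were called higher and 3 lower, with a median of 0.02. XTH19, a close relative of XTH18 whose transcripts may bind the same probes, had 168 and 212 units after avrB and 22.4 and 7.28 units untreated (3.89 ± 1.05, adjusted p = 0.00768; 3.15 with the floor), and its call was lost without array 2 of either group. EXLB1 (-1.49) and EXPB3 (-1.28) fell; without array 1 after avrB EXPB3 was at -0.97, short of the threshold. Of 7 tubulins, the subunits of microtubules, TUB5 had 210.0 and 168 units after avrB and 645 and 760.1 units untreated (-1.90 ± 0.22, adjusted p = 3.93e-06), TUB6 fell by 1.14, and the other 5 lay between -0.92 and 0.79.

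Nuclear genes of photosynthesis were lower after avrB, in part past the threshold. Of 63 listed genes 11 were tested, all 11 differences were below 0 with unadjusted p under 0.05, 4 were called, and the median was -0.89. LHCB4.2, a light-harvesting protein of photosystem II, had 1214 and 1155 units after avrB and 4138 and 4874 units untreated (-1.92 ± 0.19, adjusted p = 8.71e-07). Phosphoribulokinase (PRK) had 1549.7 and 1608 units after avrB and 4900.2 and 4504 units untreated (-1.57 ± 0.16, adjusted p = 1.04e-06), and SBPASE, another enzyme of the Calvin cycle, had 978 and 1042 units against 2521 and 2321 units (-1.26 ± 0.15, adjusted p = 6.14e-06). PSBY, a small photosystem II protein, had a difference of -1.13 ± 0.15 that became -0.89 after quantile normalization, under the threshold. RCA was not called (-0.89 ± 0.17), and LHCB4.3 was the member whose groups touched, at 227 and 165 units after avrB and 476 and 227 units untreated. Of 6 tested genes of chlorophyll synthesis, CHLM, a methyltransferase of the pathway, had 312 and 302 units after avrB and 1347 and 1099 units untreated (-1.99 ± 0.18), and PORB, protochlorophyllide oxidoreductase, had 928 and 1047 units against 1972 and 3318 units (-1.38 ± 0.22); 4 were not called, at -0.93 to 0.40. Genes encoded by the plastid itself gave no call among 69 tested by limma, with a median of -0.09 and a range from -0.91 to 1.08, and 11 of them had an unadjusted p under 0.05. The difference between nuclear and plastid genes as groups was not tested, and the plastid genome list was added after values were seen.

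COR47, a dehydrin of the cold and drought response, rose by 1.51 ± 0.20, with COR15A (0.35) and COR15B (-0.77) not called. GI, the single tested clock gene of 25 listed, had 131 and 142 units after avrB and 269 and 283 units untreated (-1.02 ± 0.14, adjusted p = 3.68e-05), just past the fold threshold, and lost its call with a pseudocount (-0.97), without array 1 after avrB (-0.96) and without untreated array 2 (-0.98). Of 11 tested cytochromes P450, CYP71B23 rose by 2.31 ± 0.33 and CYP71B34 (-1.19) and CYP71B24 (-1.02) fell; CYP71B24 was not called without array 2 after avrB (-0.69) or untreated array 1 (-0.78). EIN3, GAMMA-VPE, SWEET11, IAA18 and NAC014, the single tested members of their lists, were not called, at -0.77 to 0.70. Of the cell type markers, FMA and AT1G22690 of the stomatal list were not called (-0.04 and -0.21). STOMAGEN, the called member of that list, is a peptide of the leaf interior and does not mark stomatal cells themselves. The trichome regulator GIS had 14.6 and 28.8 units after avrB and 105 and 74.2 units untreated (-2.10 ± 0.41, adjusted p = 0.000716). Whether the number of stomatal or trichome cells in the sampled leaf tissue moved with treatment was not tested.

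How far the response of sid2 differed from that of the wild type was asked by testing the difference between both log2 responses. The sid2 response had more calls, 3064 against 1690 (12.4% of 13648) in Col-0, where 7.31% were higher and 5.07% lower. The calls overlapped: 834 probe sets were higher in both, which is 56.2% of the sid2 and 83.6% of the Col-0 calls, and 503 were lower in both, which is 31.9% and 72.7%. Over these shared calls the median log2 difference was 2.38 in sid2 and 1.68 in Col-0 for rises, and -1.66 in sid2 and -1.26 in Col-0 for falls. The difference between the responses itself was called for 355 probe sets (2.6%), 262 of them more positive (1.92%) and 93 more negative (0.681%) in sid2. Among the 262 the median response was 2.84 in sid2 and 1.18 in Col-0. Their median signal after avrB was 456 units in sid2 and 413 units in Col-0, and in untreated leaves it was 61.1 units in sid2 and 206 units in Col-0. Compared gene by gene in untreated leaves, where 808 (5.92%) of all probe sets were called between both genotypes (1.96% higher and 3.96% lower in sid2), 212 of the 262 were lower and 1 higher in sid2; after avrB, where 205 (1.5%) were called (0.535% higher and 0.967% lower in sid2), 8 were lower and 15 higher. The arrays of these level comparisons are those of the responses, so they describe where the difference lies and are no separate evidence of it. Among the 93, the median signal was 102 units in sid2 and 136 units in Col-0 after avrB, and 325 units in sid2 and 152 units in Col-0 in untreated leaves.

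AT3G01830 had 1054 and 924 units in sid2 and 728 and 824 units in Col-0 after avrB, but 1.38 and 1.82 units in sid2 and 93.8 and 115 units in Col-0 in untreated leaves; its response was 9.29 in sid2 and 2.90 in Col-0 (difference 6.39 ± 0.36, adjusted p = 1.3e-07; 2.71 with the floor). AT5G08240 had 81.7 and 144 units in sid2 and 129 and 99.0 units in Col-0 after avrB, and 2.11 and 2.76 units in sid2 and 122 and 99.4 units in Col-0 in untreated leaves. It thus had a response in sid2 (5.49 ± 0.37) and none called in Col-0 (0.04 ± 0.37), with a difference of 5.45 ± 0.53 (adjusted p = 2.92e-05; 2.38 with the floor). The untreated sid2 signals of AT5G08240 were under 20.2 units, so the size of its sid2 response depends on the floor as well. The differences of AT4G39670, AT1G05340, AT2G32030 and AT2G32140 lay between 4.90 and 5.66; with the floor they were 2.37 for AT4G39670, 1.39 for AT1G05340, 2.12 for AT2G32030 and 1.94 for AT2G32140. Those of AT3G48640 (5.62 ± 1.29) and XTH18 (4.75 ± 1.03) were called but lost their call under several settings, among them a variance without a trend. With the floor they were 1.38 (adjusted p = 0.148) for AT3G48640 and 2.00 for XTH18. In untreated atgsnor1-3, AT3G01830 was low too, at 0.796 and 1.44 units, and its log2 response there was 10.3. The atgsnor1-3 responses of AT4G39670, AT1G05340, AT2G32140 and XTH18 were 7.36, 7.50, 6.78 and 7.47. All untreated atgsnor1-3 signals of these genes and of AT3G01830 were under 20.2 units, so the sizes of these responses depend on the floor. For these genes the sid2 and atgsnor1-3 responses were not called different, so a large response was not particular to sid2.

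BZIP60 had 544 and 594 units in Col-0 after avrB and 468 and 345 units in untreated Col-0; its difference of 1.68 ± 0.24 between the responses (adjusted p = 0.00108) lay beside a response of 2.18 in sid2 and 0.50 in Col-0. ATERDJ3B had 708 and 899 units in Col-0 after avrB and 1136 and 1311 units in untreated Col-0, where its response was -0.61; the difference was 1.92 ± 0.26 (adjusted p = 0.000696). Neither gene was called in Col-0. Further members with a more positive response in sid2 that kept the call without each array in turn were Hsp70-2 (1.84 ± 0.26, adjusted p = 0.000787), SGT1A (1.68 ± 0.28, adjusted p = 0.00279), PUB24 (1.58 ± 0.28, adjusted p = 0.00444), CML37 (4.65 ± 0.90, adjusted p = 0.00796; 1.24 with the floor), AT5G52810 (1.81 ± 0.28, adjusted p = 0.00197), UGT87A2 (2.09 ± 0.34, adjusted p = 0.00224), AT4G01700 (2.24 ± 0.33, adjusted p = 0.00133) and CHI (1.92 ± 0.32, adjusted p = 0.00279). CHI stood out by level: it had 342 and 351 units in sid2 and 1476 and 1708 units in Col-0 after avrB, and 61.2 and 46.1 units in sid2 and 1084 and 781 units in Col-0 in untreated leaves. Its response was larger in sid2 while both sid2 groups lay below both Col-0 groups. The differences between responses of CCR2 (2.84), F6'H1 (3.46), NDB2 (1.55) and CML41 (1.82) were called but did not keep the call under all settings; with the floor that of F6'H1 was -0.35 and that of CCR2 0.89, not called.

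Of the genes with a more negative response in sid2, ORA47 fell in sid2 and rose from a low level in Col-0. After avrB it had 48.0 and 58.3 units in sid2 and 33.6 and 35.8 units in Col-0. In untreated leaves it had 129 and 170.1 units in sid2 and 14.6 and 16.6 units in Col-0. It fell by 1.49 on the log2 scale in sid2 and rose by 1.16 ± 0.32 in Col-0 (difference -2.64 ± 0.45, adjusted p = 0.0035). Both untreated Col-0 signals of ORA47 were under the filter level, so the size of its Col-0 rise depends on the floor. Its sid2 signals all lay above that level. PDF1.2 had 179 and 154 units in Col-0 after avrB and 200.5 and 62.0 units in untreated Col-0, so its Col-0 groups overlapped (0.58 ± 0.77), and the difference of -4.77 ± 1.08 (adjusted p = 0.0244) reached adjusted p of 0.0526 to 0.12 without 7 of the 8 arrays in turn. AT1G19960 fell in both, with a response of -4.86 in sid2 and -1.69 in Col-0 (difference -3.17 ± 0.36, adjusted p = 0.000126). DEWAX (AT5G61590) had a response of -3.18 in sid2 and -1.05 in Col-0 (difference -2.13 ± 0.28, adjusted p = 0.000493), having had 277 and 256 units in untreated Col-0. EXLA1, an expansin-like protein, was not called in sid2 (0.73 ± 0.27) and rose by 2.79 ± 0.27 in Col-0 (difference -2.06 ± 0.39, adjusted p = 0.00653). The jasmonate-inactivating genes did not follow this pattern, with differences of -0.30 ± 0.60 for AT2G38240, 0.49 ± 0.99 for JRG21 and -0.16 ± 0.60 for AT5G05600, none of them called.

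**Figure D3:**
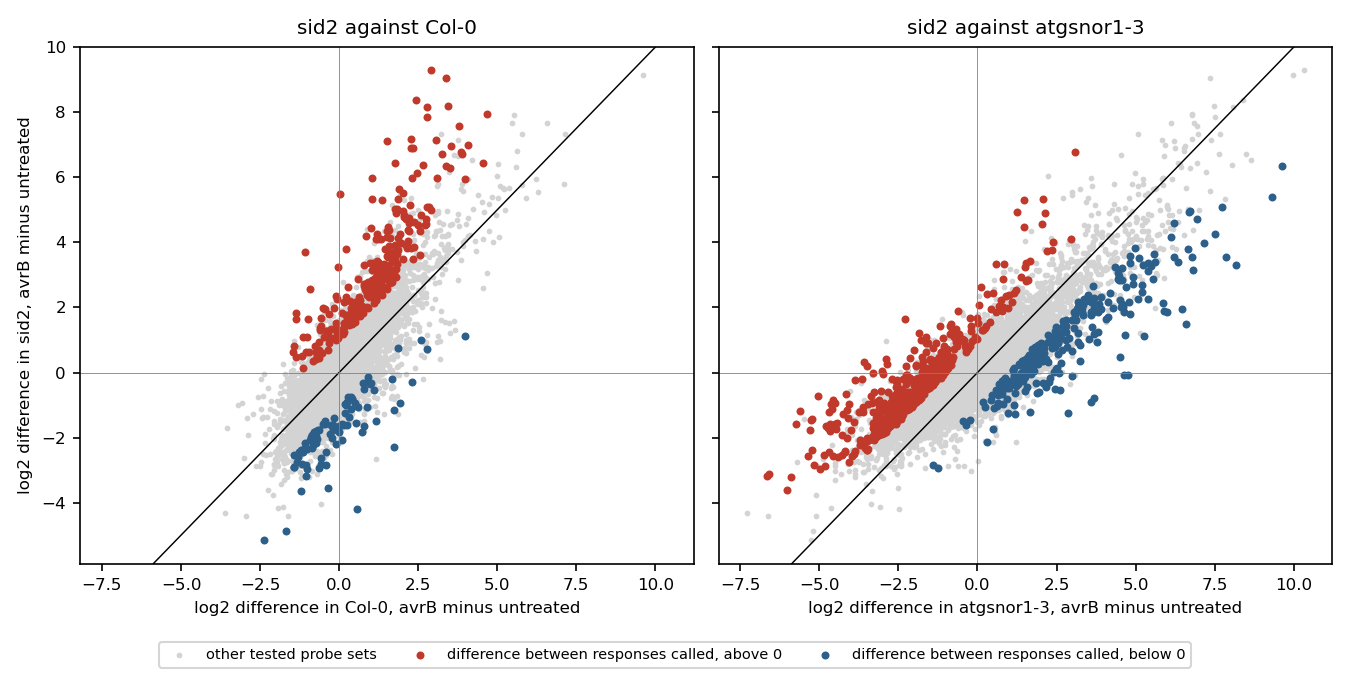
Log2 response of each tested probe set to avrB in sid2 (vertical axis) against that in Col-0 (left) and in atgsnor1-3 (right); red points had a called difference between the responses above 0, blue points one below 0, grey points none, and the line marks equal responses. Against Col-0, 262 called points lie above the line and 93 below it; against atgsnor1-3, 428 lie above and 271 below.

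Set against atgsnor1-3, whose response had 4767 calls (34.9%; 15.0% higher and 20.0% lower), the sid2 response had fewer calls. The calls shared with it were 1240 rises (83.5% of the sid2 and 60.8% of the atgsnor1-3 calls) and 1296 falls (82.1% and 47.5%), and over these the median difference was 2.02 in sid2 and 2.37 in atgsnor1-3 for rises and -1.47 in sid2 and -1.93 in atgsnor1-3 for falls. With atgsnor1-1, which had 2610 calls (19.1%; 8.58% higher and 10.5% lower), sid2 shared 976 rises and 919 falls, which is 65.7% and 58.2% of the sid2 calls and 83.3% and 63.9% of the atgsnor1-1 calls. The difference between the sid2 and atgsnor1-3 responses was called for 699 probe sets (5.12%), 428 of them more positive (3.14%) and 271 more negative (1.99%) in sid2. For the 428 the median response was -0.57 in sid2 and -2.09 in atgsnor1-3, and 339 of them were called lower in atgsnor1-3 against 141 in sid2. For the 271 it was 0.68 in sid2 and 2.44 in atgsnor1-3, and 228 were called higher in atgsnor1-3 against 112 in sid2. Here the median signals in untreated leaves lay close for the 428 (191 units in sid2 and 199 units in atgsnor1-3) and those after avrB lay apart (140 units in sid2 and 52.7 units in atgsnor1-3). For the 271 the medians lay apart in both states. They were 90.4 units in sid2 and 56.9 units in atgsnor1-3 in untreated leaves, and 163 and 320 units after avrB.

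AT2G21640, of the mitochondrial stress list, had 48.2 and 63.9 units in sid2 and 1009 and 1289 units in atgsnor1-3 after avrB, and 42.5 and 79.3 units in sid2 and 64.1 and 32.3 units in atgsnor1-3 in untreated leaves; it gave no call in sid2 and rose by 4.65 ± 0.39 in atgsnor1-3 (difference -4.71 ± 0.56, adjusted p = 0.000222). AT2G41730, on a probe set that may bind related transcripts, had 128 and 136 units in sid2 and 1952 and 2368 units in atgsnor1-3 after avrB (difference -5.12 ± 0.61, adjusted p = 0.000222). NDB2 was not called different, with responses of 2.84 in sid2 and 3.23 in atgsnor1-3. HAT2, a homeodomain transcription factor induced by auxin, had 42.3 and 36.0 units in sid2 and 4.11 and 2.62 units in atgsnor1-3 after avrB and fell in both, with a response of -1.46 in sid2 and -5.25 in atgsnor1-3 (difference 3.79 ± 0.47, adjusted p = 0.000336); with the floor the difference was 1.17 and not called. GH9C2, an endoglucanase of the wall, had 137 and 129 units in sid2 and 45.6 and 21.1 units in atgsnor1-3 after avrB (difference 2.57 ± 0.39, adjusted p = 0.00135), and MSRB5 had a response of -2.42 in sid2 and -4.19 in atgsnor1-3 (difference 1.77 ± 0.24, adjusted p = 0.000759). STZ rose less in sid2, by 2.86 against 4.58 in atgsnor1-3 (difference -1.72 ± 0.28, adjusted p = 0.00196). ATG8B was not called in sid2 (-0.32 ± 0.25) and rose by 2.07 ± 0.25 in atgsnor1-3 (difference -2.39 ± 0.35, adjusted p = 0.00119). AT1G57630 had 1441 and 1445 units in sid2 and 1248 and 1381 units in atgsnor1-3 after avrB, and 19.9 and 15.7 units in sid2 and 3.09 and 0.872 units in atgsnor1-3 in untreated leaves; its difference of -3.30 ± 0.53 rests on untreated signals under 20.2 units and was 0.14 with the floor.

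**Figure D4:**
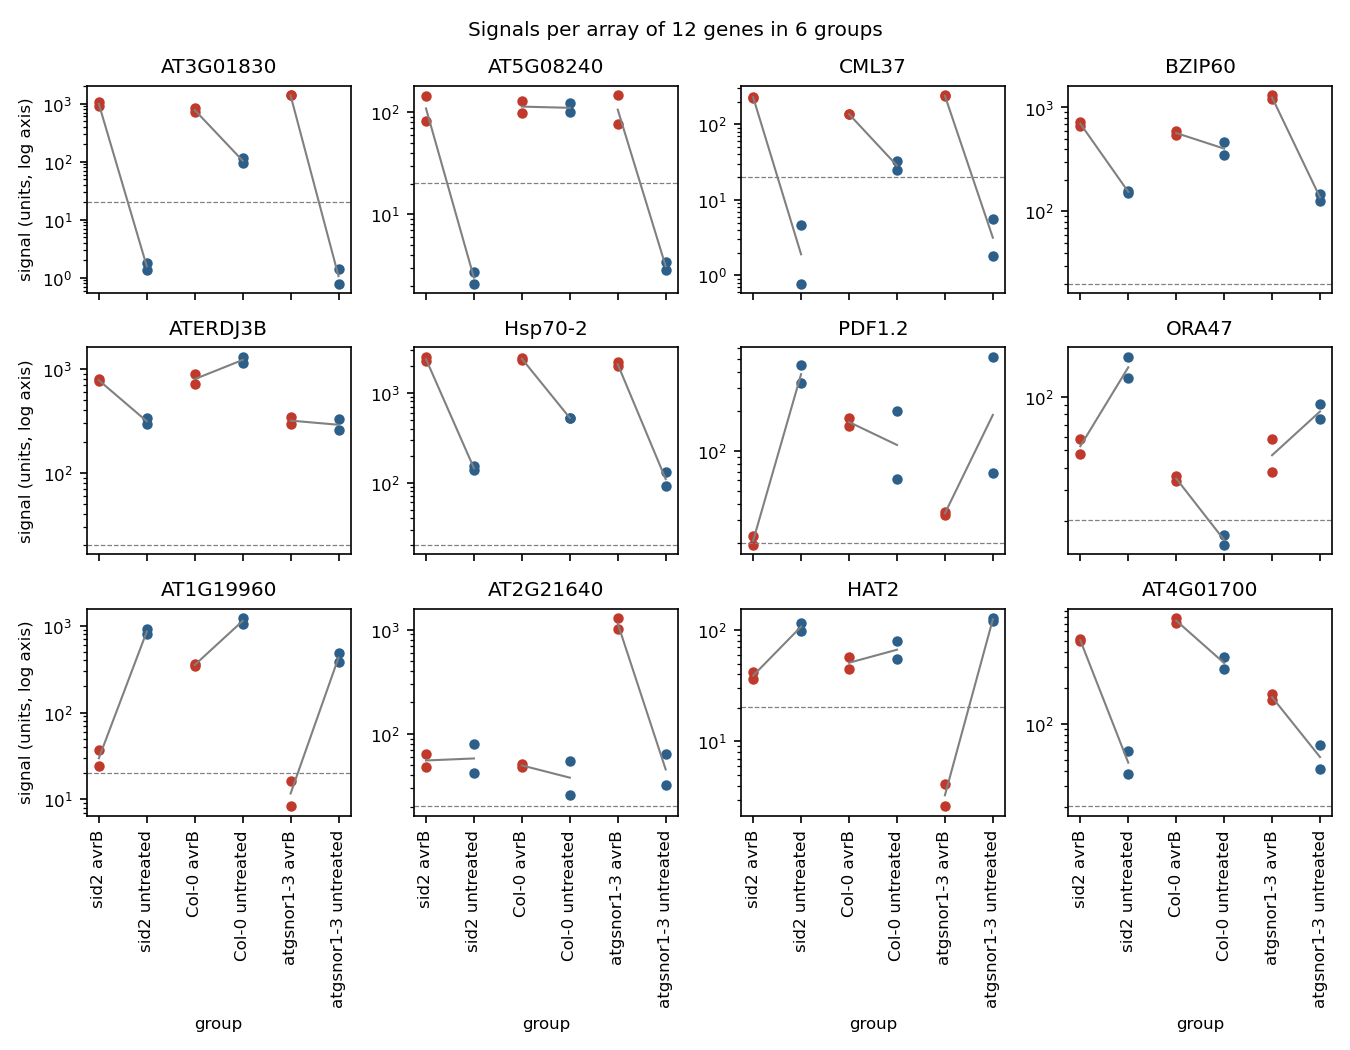
Signals per array (units, log axis) of 12 genes in 6 groups: sid2, Col-0 and atgsnor1-3, each after avrB (red) and untreated (blue), with grey lines joining the geometric means of the pair and a dashed line at 20.2 units. AT3G01830, AT5G08240, CML37, BZIP60 and Hsp70-2 are lower in untreated sid2 than in untreated Col-0 and near each other after avrB, whereas AT2G21640 is high only in atgsnor1-3 after avrB. AT3G01830 is also low in untreated atgsnor1-3, at 0.796 and 1.44 units.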

How the data were processed

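Expression was measured on 16 ATH1 arrays, 2 in each of 8 groups, named by array title; the title of the second sid2 array after avrB names both replicate numbers and was taken as 2. The authors' deposited values are linear probe set intensities for which the submitters' processing notes name GCOS and MAS5, scaled as the report describes; no step of theirs is otherwise given in the sources used here. Of 22810 probe sets, 64 controls and the 40% dimmest by mean over all arrays (under 20.2 units) were left out, leaving 13648. MAS5 gives very low signals with large relative error, so folds against such signals depend on the floor. Of the probe sets that are no controls, 13513 carry 1 gene symbol, 503 several and 8730 none, and 13436 were matched to a locus.

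Log2 signals were fitted with limma 3.58.1 in R 4.3.3 over all 8 groups (lmFit, eBayes with a mean-variance trend, 8 residual degrees of freedom, Benjamini-Hochberg adjustment over all 13648). The contrasts were each response and the difference between the sid2 response and those of Col-0 and atgsnor1-3. The fit was also run on simulated data with known changes. Their noise was normal with the fitted spreads, so that run checks the calculation and not whether the model suits these arrays. Named genes are up to 15 largest called rises and falls with 1 gene symbol, no overlap of arrays and a mean of at least 100 units in the higher group, up to 8 of each sign for each difference between responses, and up to 4 called members of each list and direction, with further members as values. The members and lists were chosen with earlier results of these data known; the chitinase, berberine bridge enzyme, AZI1 and EARLI1, methionine sulfoxide reductase and plastid genome lists were added after values were seen. Lists were written by locus from general knowledge, so the role of a locus without a symbol rests on its list and not on the annotation. Genes with no annotated probe set, and sequences, were not analysed here. Same-numbered arrays showed little tendency to deviate together (correlations of deviations from group means of -0.152 to 0.104, and 0.0944 between the 2 sid2 groups). No pairing by number was thus evident, and none was used in the main fit. Alternatives were quantile normalization, no filter, the dimmest 60% left out, a pseudocount of 9.48 units, a floor at the filter level, no trend, a replicate block, only the compared groups and each array left out in turn.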

Additional observations from a re-analysis of the deposited data

Results flagged for a closer look

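All entries are differences between the log2 response of sid2 and that of another genotype, past the threshold by the test of the difference itself. The difference from Col-0 was called for 355 probe sets and that from atgsnor1-3 for 699.

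Against Col-0, the response was more positive in sid2 for AT3G01830 (6.39), AT4G39670 (5.66), AT3G48640 (5.62), AT5G08240 (5.45), AT1G05340 (5.07), AT2G32030 (4.94), AT2G32140 (4.90) and XTH18 (4.75). It was more negative for PDF1.2 (-4.77), AT5G25240 (-3.22), AT1G19960 (-3.17), ORA47 (-2.64), AT3G19680 (-2.32), AT5G22580 (-2.18), AT5G61590 (-2.13) and AT3G28270 (-2.11). Among list members, the difference was positive for CML37 (4.65), AT3G13610 (3.46), CCR2 (2.84), AT4G01700 (2.24), UGT87A2 (2.09), ATERDJ3B (1.92), CHI (1.92), Hsp70-2 (1.84), CML41 (1.82), AT5G52810 (1.81), psbM of the plastid genome (1.70), BZIP60 (1.68), SGT1A (1.68), AT4G20830 (1.67), PUB24 (1.58), NDB2 (1.55) and AT3G47540 (1.06). It was negative for EXLA1 (-2.06), GT72B1 (-1.29) and GSTU27 (-1.15). With signals under 20.2 units raised to that level, AT3G48640 (1.38), CCR2 (0.89) and AT3G13610 (-0.35) were not called. With no trend in the variance AT3G48640, XTH18, PDF1.2, AT5G25240, AT3G28270, psbM, CML41, AT3G47540, AT4G20830, NDB2, GT72B1 and CCR2 were not called. Calls lost with 1 array left out are counted in the last section.

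Against atgsnor1-3, the response was more positive in sid2 for AT4G38560 (3.85), HAT2 (3.79), AT4G03150 (3.00), AT4G30020 (2.93), AT3G20820 (2.88), EXPA8 (2.71), GH9C2 (2.57) and AT5G50915 (2.53). It was more negative for AT2G41730 (-5.12), AT2G21640 (-4.71), AT5G51440 (-4.31), AT5G14730 (-4.03), AT5G51830 (-3.75), AT3G13950 (-3.65), AT5G43450 (-3.51) and AT1G57630 (-3.30). Among list members, the difference was positive for UGT72E1 (3.30), AT3G13610 (3.26), AT2G34810 (1.97), XTH32 (1.81), MSRB5 (1.77), AT4G01700 (1.75), EXPA16 (1.61), CRT1b (1.58), UGT71B1 (1.57), AT5G07340 (1.51), BCAT4 (1.51), AT2G31790 (1.40), AT5G52810 (1.26), ATERDJ3B (1.18), TUB5 (1.11) and TUB6 (1.09). It was negative for ATG8B (-2.39), GRX480 (-2.21), STZ (-1.72), ATG8E (-1.43), AT4G20830 (-1.17) and BZIP60 (-1.02). With signals under 20.2 units raised to that level, UGT72E1 (0.36), EXPA8 (0.91), HAT2 (1.17), AT3G13950 (-1.12), GRX480 (-0.52) and AT1G57630 (0.14) were not called. With no trend in the variance AT5G51440, AT5G52810, ATERDJ3B, AT4G20830, UGT71B1, BZIP60, TUB5, AT2G31790, CRT1b and AT2G34810 were not called. Here too, calls lost with 1 array left out are counted in the last section.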

How the results depend on the processing

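The 3064 calls of the sid2 response numbered 2161 to 3325 under the 8 alternatives that kept all arrays and 2727 to 2887 with 1 array left out. The 355 calls of the difference from Col-0 became 222 with no trend in the variance and 203 to 451 with 1 array left out; they numbered 203 without sid2 array 1 after avrB and 213 and 214 without Col-0 array 1 or 2 after avrB. The 699 calls of the difference from atgsnor1-3 became 454 in a fit of the compared groups alone and 379 to 1045 with 1 array left out; they numbered 379 and 424 without sid2 array 1 or 2 after avrB, 429 without untreated sid2 array 2 and 426 without atgsnor1-3 array 2 after avrB. The cause was not tested. With the floor the difference of AT3G13610 from Col-0 turned to -0.35 and that of AT1G57630 from atgsnor1-3 to 0.14, and 7 further named or listed differences between responses lost their call: AT3G48640 (1.38) and CCR2 (0.89) against Col-0, and UGT72E1 (0.36), GRX480 (-0.52), EXPA8 (0.91), HAT2 (1.17) and AT3G13950 (-1.12) against atgsnor1-3. These rest on signals under the filter level. With the replicate block the counts were 3053, 348 and 671, and of the single results CCR2 against Col-0 lost its call (adjusted p = 0.0565). Without each array in turn 99 of 113 named or listed calls of the sid2 response were kept, 23 of 36 against Col-0 and 20 of 38 against atgsnor1-3. Arrays number 2 a group, which limits the precision.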
